A study of Homo sapiens with 16 samples.

Results

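H3K9me2 peak regions that were annotated to a promoter, an exon, an untranslated region, a transcript end, a noncoding transcript or a CpG island numbered 1211 among 16092 merged peak regions (7.53%). They were chosen by the detailed HOMER annotation alone, which gave 285 promoter-TSS, 27 5' UTR, 389 exon, 58 3' UTR, 101 TTS (transcription termination site), 95 non-coding (exon of a noncoding transcript) and 256 CpG regions. The other 14881 regions lay in repeats, introns or intergenic sequence. The cells were BJ-5ta, a human foreskin fibroblast line immortalised with telomerase, either wild type (WT) or ΔLEO1, in which CRISPR removed LEO1 and which was 1 clone. Each genotype was grown in 10% serum or kept for 10 days in 0.1% serum to induce quiescence, with replicates A and B of a ChIP and an input library in each group. The labels name the antibody only as H3, and the study describes it as directed against H3K9me2.

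Dimethylation of lysine 9 on histone H3 is laid down mainly by the enzymes G9a and GLP and is a mark of silent chromatin, spread in broad domains over inactive genes and repeats. Active promoters and CpG islands usually lack it, so regions of the mark on promoters, exons and CpG islands may lie at genes that are silent in the cell type. Expression of the genes named below was not examined here. LEO1 is a subunit of the PAF1 complex, which travels with RNA polymerase II during elongation.

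The A replicate of the ΔLEO1 ChIP in 10% serum held 21 reads over all regions and was left out, so ΔLEO1 in 10% serum rested on 1 ChIP library. In the other 7 ChIP libraries the 1211 regions held 17276 to 31607 reads, a median of 13 to 23 reads a region, and in the 8 inputs 8591 to 20356 reads, a median of 6 to 15. Replicate libraries correlated over the 1211 regions with r between 0.654 and 0.686 for ChIP and between 0.385 and 0.582 for input. Levels are given as density, the reads per kb per 1000000 reads over annotated TSS windows. Coordinates are hg38 as the deposited table gives them.

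The regions lay near 1094 named genes, and 17 had no gene name, 15 of them CpG regions. Genes are called by the annotated transcript where there is one and otherwise by the nearest start. More than 1 region was nearest to the same gene for 89 genes. The genes with 3 regions each included CELSR3 and FLG2, a cadherin of planar cell polarity and a filaggrin-family skin protein, both marked in exons, and MUC17, a membrane mucin. Of the 389 exon regions, 184 were in internal exons, 99 in last exons, 50 in first exons and 56 in genes of a single exon. All 58 3' UTR regions were in the last exon. Noncoding transcripts made up 102 of the 285 promoter regions and 47 of the 101 TTS regions. Of the CpG regions, 218 of 256 were over 1 kb from the nearest annotated start. The share on chromosome 19 was 5.37% against 1.38% of the other regions, and was highest in the 3' UTR class, with 7 of 58 regions.

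Promoter sequence was read from RefSeq (GRCh38.p14) for the promoter regions, of 285, that overlapped the 300 bases from 250 before to 50 after the start of the same gene. At least 20 CG dinucleotides were found in 70 of these stretches (54.7%) and fewer in 58, while 41.2% of all promoters had at least 20. The stretches held a median of 20.5 CG dinucleotides, against 14 over all 35116 promoters in the table, and a GC content of 63.0% against 58.7%. The 30 bases just before the start are given for the promoters at the extremes of density or of ChIP over input that had a matched stretch, with CG in capitals, to show how far CG content varied among them.

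LINC02228 (chr5:25190657-25190686, minus strand): cctttgggCGgCGcCGggCGtggtgggcCG
PDE1C (chr7:32428225-32428254, minus strand): agaggCGgagcagacagctgggggCGcccc
EPHA5 (chr4:65670490-65670519, minus strand): ggaggcagaggagaCGcCGgagctccagac
ZMYM2 (chr13:19957393-19957422, plus strand): taatcccactaagaacCGccagggCGagac
PURPL (chr5:27472262-27472291, plus strand): gagcctgccctcttgagctcttgtggtgac

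The full 300 bases held 33 CG at LINC02228, 24 at PDE1C, 19 at EPHA5, 10 at ZMYM2 and 0 at PURPL. LINC02228, the most CG-rich of these, had the highest ChIP over input of all promoter regions, and PURPL and EPHA5 had the lowest over the 7 libraries together. Over the matched promoters the order did not follow CG count alone. Those with at least 20 CG had a median log2 ChIP over input of 1.80 (n = 70) and those with fewer 1.73 (n = 58).

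To learn how strongly each class was marked, ChIP was set against input with TSS-window totals as library sizes. Nearly all regions were above input: 1209 of the 1211 passed edgeR's quasi-likelihood test at an adjusted p under 0.05, beside 99.8% of all regions, so the count says nothing particular about them. The median log2 ChIP over input was 1.72 over the 1211 and 1.66 over all regions. The 2 regions that did not pass were the EPHA5 promoter, which was above input in WT and below it in ΔLEO1, and the TTS region of LINC01091. As all regions were peaks to begin with, these values describe height and are not a test of whether the mark was there.

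Promoter regions stood slightly higher than the repeat, intron and intergenic regions. With reads summed over each class, promoter ChIP over input was 4.02-fold, and its log2 exceeded that of the other regions by 0.09 ± 0.06 (SD, n = 7 libraries), with all 7 libraries above 0. Libraries of a group were divided by the same mean input, so the 7 values are not independent. The log2 excess was within its spread for 5' UTR regions, with 0.15 ± 0.16 and 6 of 7 libraries above 0, and for CpG regions, with 0.10 ± 0.13 and 5 of 7. Its 5' UTR mean was 0.25 in WT and 0.03 in ΔLEO1. Exon (0.02 ± 0.09), 3' UTR (-0.03 ± 0.12), TTS (-0.03 ± 0.06) and non-coding regions (0.02 ± 0.07) differed from the other regions by less than the spread between libraries. The promoter excess was larger in each of the 4 WT libraries than in each of the 3 ΔLEO1 libraries, with means of 0.14 and 0.04.

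**Figure D1:**
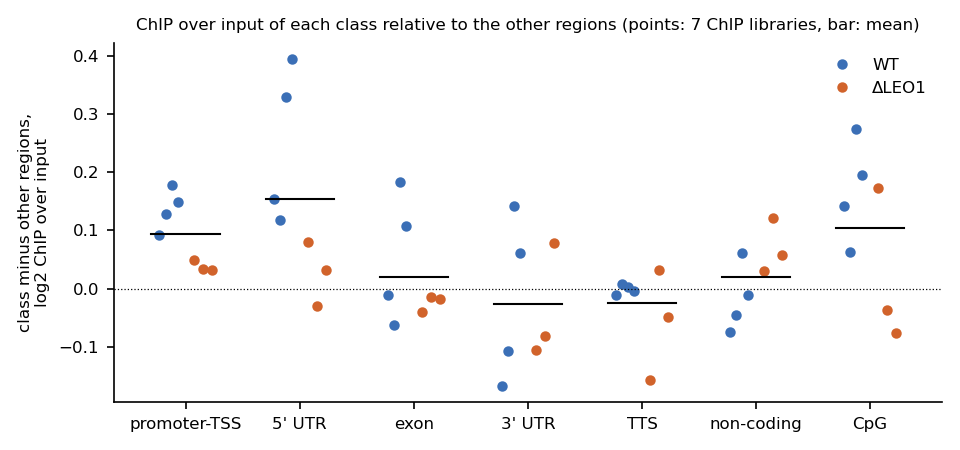
Log2 ChIP over input of each class minus that of the repeat, intron and intergenic regions (y axis), one point per ChIP library, WT in blue and ΔLEO1 in orange, black bar the mean of 7 libraries. Promoter regions were above 0 in 7 of 7 libraries, while exon, 3' UTR, TTS and non-coding points scattered around 0.

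The promoter signal was higher in the regions than beside them. The 190 of 285 promoter regions that lay wholly inside a 2000-base TSS window had a ChIP density of 9.33 ± 1.57 in the region and 4.24 ± 0.30 in the rest of the window (SD, n = 7), a ratio of 2.19 ± 0.25 with a range of 1.90 to 2.54. In the 8 inputs the same ratio was 1.04 ± 0.18 with a range of 0.895 to 1.47. The 1.47 was the A replicate of ΔLEO1 in 10% serum, which had the fewest region reads of the inputs (111132). The next highest input ratio was 1.06. The ChIP and input ranges did not overlap. The regions were chosen as peaks, so a ratio above 1 in ChIP follows from the choice. The flank density in ChIP was above the 2.199 ± 0.14 of the inputs in all 7 libraries. The flanks adjoin the chosen peaks, and whether the choice also raised them was not tested.

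**Figure D2:**
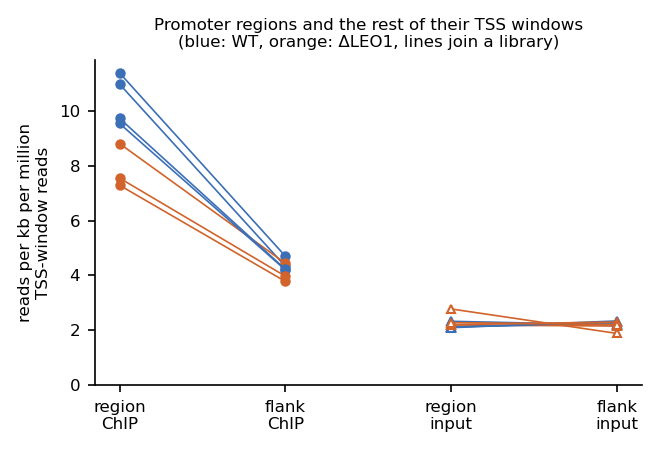
Density in reads per kb per 1000000 TSS-window reads (y axis) in promoter regions and in the rest of their TSS windows, one line per library, ChIP as filled circles and input as open triangles, WT in blue and ΔLEO1 in orange. ChIP libraries fell from a mean of 9.33 in the region to 4.24 in the flank and the input means were 2.26 and 2.199.

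Named promoters spanned a wide range of levels. The highest promoter densities were at FRG1FP, a pseudogene of the FRG1 family (15.6 ± 5.89, SD, n = 7; input 4.32 ± 1.72, n = 8), ZMYM2, a zinc finger corepressor subunit (14.7 ± 3.80; input 2.85 ± 0.85), and MIR9901 (13.9 ± 3.15; input 3.28 ± 0.96). The highest log2 ChIP over input was at LINC02228 (2.40 ± 0.25, SE), then PDE1C, a calmodulin-dependent phosphodiesterase (2.35 ± 0.19), and ZNF804B, a zinc finger gene (2.34 ± 0.20). None of the 3 with the highest density was among the top 3 by ChIP over input. The lowest over all 7 libraries were EPHA5, an ephrin receptor of neural guidance (0.07 ± 0.32), and PURPL, a p53-regulated long noncoding RNA (0.87 ± 0.33). For both, the mean densities were lower in ΔLEO1. EPHA5 had 17 and 10 reads in WT in 10% serum, 20 and 12 in WT in 0.1% serum, 1 in ΔLEO1 in 10% serum and 2 and 2 in ΔLEO1 in 0.1% serum. Its mean densities were 6.71 and 7.34 in WT and 0.651 and 0.940 in ΔLEO1, with an input of 2.45 ± 0.47, so that WT lay above input and ΔLEO1 below it. PURPL had 10.7 and 9.04 in WT and 2.58 and 3.60 in ΔLEO1, but its difference of -0.83 ± 0.55 did not pass either (adjusted p = 0.722 in edgeR). Between genotypes in 0.1% serum EPHA5 had a log2 difference of -1.97 ± 0.65 (adjusted p = 0.262 in edgeR), which did not pass. The PDE1C region held 32 and 49 ChIP reads in WT in 10% serum, 24 in ΔLEO1 in 10% serum, 50 and 42 in WT in 0.1% serum and 37 and 19 in ΔLEO1 in 0.1% serum, against 2 to 22 in the inputs.

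Among 5' UTR regions the gene SPAG6, which encodes a protein of the sperm flagellum axoneme, led both by density (13.3 ± 1.52, SD, n = 7) and by log2 ChIP over input (2.26 ± 0.19, SE). MEI4, a meiotic recombination factor, followed in density with 12.3 ± 4.07 and MAP3K7CL with 11.95 ± 3.65. KCNA6, a voltage-gated potassium channel, and GPR158, an orphan receptor of brain, reached 2.21 ± 0.23 and 2.16 ± 0.17 over input. ADAMTS18, a secreted metalloprotease, and IL16, a cytokine, were the lowest with 0.89 ± 0.31 and 1.10 ± 0.27.

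Exon regions with the highest density were FRG2C (14.6 ± 2.39), SH2D3C, a signalling adaptor (14.2 ± 2.54), and SVOP, a synaptic vesicle protein (14.0 ± 2.82). The highest over input were the region in exon 8 of SRRM4, a neural splicing factor (2.31 ± 0.29), the first exon of the protocadherin PCDH8 (2.31 ± 0.16) and the single exon of POM121L12 (2.28 ± 0.21). BCL9, a Wnt coactivator (exon 5, 0.80 ± 0.32), and ZBTB38, which binds methylated DNA (exon 8, 0.76 ± 0.24), were the lowest. PCDH8 rested on the most reads of these, with 34 to 84 in the ChIP libraries and 9 to 43 in the inputs.

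At gene ends the 3' UTR densities were at most 11.97, at B3GALT6, which builds the linker of glycosaminoglycans, followed by PTPN11, the phosphatase SHP2 (11.9 ± 2.86), and the zinc finger gene ZNF208 (11.8 ± 4.64). Over input, the 3' UTRs of GSG1L, an auxiliary subunit of glutamate receptors (2.19 ± 0.24), NEGR1, a neural adhesion protein (1.96 ± 0.22), and ATOH8, a bHLH factor (1.95 ± 0.26), were the highest, and ST8SIA4, a polysialyltransferase (1.00 ± 0.30), and CACNA1E, a calcium channel (0.97 ± 0.31), the lowest. TTS regions were led in density by DUXAP9 (13.5 ± 3.47), LOC100132249 (12.7 ± 1.15) and LINC02221 (12.5 ± 3.59). Over input they were led by LOC107986794 (2.23 ± 0.25), SNORA70I (2.21 ± 0.24) and the collagen gene COL20A1 (2.202 ± 0.23). The TTS region of LINC01091 was the lowest, with 3 to 19 reads in the ChIP libraries and 5 to 18 in the inputs and a log2 ChIP over input of 0.44 ± 0.30.

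The non-coding class held some of the strongest regions. A region at a noncoding transcript of ZDHHC11B reached 18.3 ± 2.28 (input 3.93 ± 1.03), and 2 regions in exon 3 of a noncoding MUC17 transcript reached 18.1 ± 1.55 and 14.5 ± 1.47 (inputs 4.24 ± 1.13 and 3.20 ± 0.56). These 2 MUC17 regions, at chr7:101032436-101035375 and chr7:101039462-101042049, were 2939 and 2587 bases long, so that 105 to 165 and 80 to 108 reads fell in them in every ChIP library. The second MUC17 region (2.16 ± 0.14), a pseudogene region near ZP4 (2.26 ± 0.19) and CYYR1 (2.16 ± 0.21) were the highest over input, and the pseudogene APOOP5 (0.82 ± 0.28) and LINC02339 (1.12 ± 0.24) the lowest.

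The highest single densities among the classes were at CpG regions on sequences not placed on a chromosome. The median CpG density of 9.13 was below the 9.33 of promoter regions, and the repeat, intron and intergenic regions reached 375. The first 3 densities were 58.4 ± 15.9 and 40.7 ± 12.5 on an unlocalised sequence of chromosome 14 and 43.7 ± 11.2 on an unplaced sequence. Their input densities of 14.4 ± 1.70, 9.97 ± 1.04 and 8.56 ± 2.05 were also above the class median of 2.22, and their log2 ChIP over input was 1.99 ± 0.14, 1.92 ± 0.14 and 2.23 ± 0.16 beside a class median of 1.79. Such sequences held 14 of the 256 CpG regions. On chromosomes, PCDH15, a cadherin of inner ear hair cells (2.25 ± 0.26), and PIWIL1, the germline piRNA-binding protein (2.23 ± 0.28), were the nearest genes to the highest regions. PAX5, a B cell transcription factor (0.97 ± 0.24), and LINC00613 (1.09 ± 0.27) were nearest to the lowest.

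To learn whether loss of LEO1 changed these regions in quiescent cells, ΔLEO1 was compared with WT in 0.1% serum. The study scaled to fly chromatin added as a spike-in and reported a global rise of H3K9me2 in ΔLEO1 in this comparison. The fit here scaled each library to its own region reads, so it shows differences between regions and not an overall change. Of the 1211 regions, 0 rose and 3 fell (edgeR's quasi-likelihood test, adjusted p under 0.05 over all 16092 regions), where 0.0621% of all regions were called. All 3 were on the long arm of chromosome 4. A region in the last exon of LINC02433, a long noncoding RNA (chr4:157574178-157575841), held 69 and 36 reads in WT in 0.1% serum and 18 and 14 in ΔLEO1, beside 41 and 52 in WT in 10% serum and 22 in ΔLEO1. Its log2 difference was -1.33 ± 0.29 (SE; adjusted p = 0.0167). A CpG region nearest to LINC02510 (chr4:136811804-136813093) held 50 and 44 reads in WT and 18 and 10 in ΔLEO1 in 0.1% serum, and 40, 39 and 20 in 10% serum, a log2 difference of -1.37 ± 0.31 (adjusted p = 0.0201 in edgeR). A region in exon 2 of GASK1B, a Golgi kinase-like gene, near the start of FAM198B-AS1 (chr4:158170537-158171307), held 26 and 30 reads in WT and 8 and 2 in ΔLEO1 in 0.1% serum, and 13, 16 and 6 in 10% serum, a log2 difference of -1.91 ± 0.44 (adjusted p = 0.0342 in edgeR). The groups did not overlap in any of the 3 in 0.1% serum, the comparison in which they were picked. In 10% serum the single ΔLEO1 library was below both WT libraries in each. The same held for 38.3% of all regions and 43.9% of the 1211.

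A stretch of chromosome 4 that held all 3 also had fewer reads in the ΔLEO1 inputs. Between 80 and 190 Mb, TSS windows held a share of reads that was 0.32 ± 0.14 lower on the log2 scale in the 4 ΔLEO1 inputs than the mean of the WT inputs, where the WT inputs spread by 0.06 (SD), and 0.33 ± 0.09 lower in the 3 ΔLEO1 ChIP libraries. The 29 regions there had a median log2 difference of -0.45 in ChIP in 0.1% serum, with 28 below 0, and of -0.30 in input. All 524 regions there had medians of -0.45 and -0.27, with 457 below 0 in ChIP. The 1182 regions elsewhere had a median of -0.07, and 0 of them were called. The input reads in the called regions themselves were 18 to 39 in WT and 18 to 22 in ΔLEO1 at LINC02433, with a fitted input difference of -0.10 ± 0.25. It was 0.08 ± 0.28 at LINC02510 and -0.32 ± 0.29 at FAM198B-AS1. The part of the lower share of reads in the 3 calls was not tested. With the input difference subtracted in 1 fit the log2 differences were -1.40 at LINC02433, -1.26 at LINC02510 and -1.73 at FAM198B-AS1, about as large as in ChIP alone, but 0 of the 3 passed, at adjusted p-values of 0.441 to 0.561 in edgeR.

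**Figure D3:**
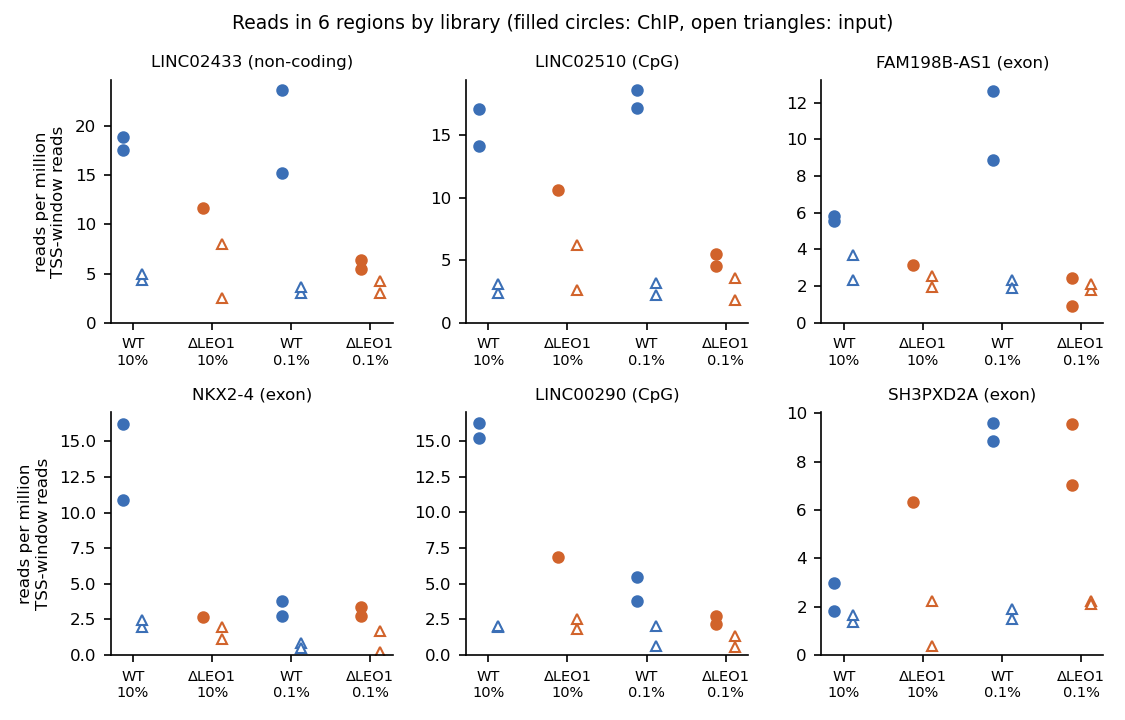
Reads per 1000000 TSS-window reads (y axis) in 6 regions, one point per library, ChIP as filled circles and input as open triangles, WT in blue and ΔLEO1 in orange, by serum (x axis). The top row shows the 3 regions that fell in ΔLEO1 in 0.1% serum. The bottom row shows the 3 with the smallest p between sera in WT, none of which was called.

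The regions with the smallest p on the higher side did not pass. Among them, OR2C1, an olfactory receptor, had a log2 difference of 1.11 ± 0.35 and FAM83F one of 1.03 ± 0.32 (both adjusted p = 0.233 in edgeR). At an unadjusted p under 0.05, edgeR gave 42 of the 1211 higher and 64 lower, beside 749 (4.65%) and 591 (3.67%) of all 16092 regions. DESeq2 called 0. With TSS-window totals as library sizes the counts at an unadjusted p under 0.05 in edgeR were 9 and 238, beside 2264 of all 16092 regions in either direction. Of the 1211, 10 were called lower, beside 93 (0.578%) of all regions. The median of all regions moved from 0.01 to -0.28, so directions are given relative to all regions.

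The difference was spread unevenly over the classes. The median log2 difference was -0.28 for 5' UTR regions, with 20 of 27 below 0, and -0.21 for CpG regions, with 182 of 256 below 0. It was -0.02 for promoters, -0.04 for exons, -0.06 for non-coding, 0.03 for 3' UTR and 0.03 for TTS regions, beside 0.01 over all regions. In reads per 1000000 region reads, both ΔLEO1 libraries were below both WT libraries in 321 of the 1211 (26.5%) and above in 163 (13.5%), where the same held for 20.4% and 17.1% of all regions. For CpG regions the counts were 86 lower (33.6%) and 18 higher (7.03%), and for 5' UTR regions 10 lower and 1 higher of 27. Outside the chromosome 4 stretch the CpG median was -0.21 over 251 regions, and no 5' UTR region lay in the stretch.

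**Figure D4:**
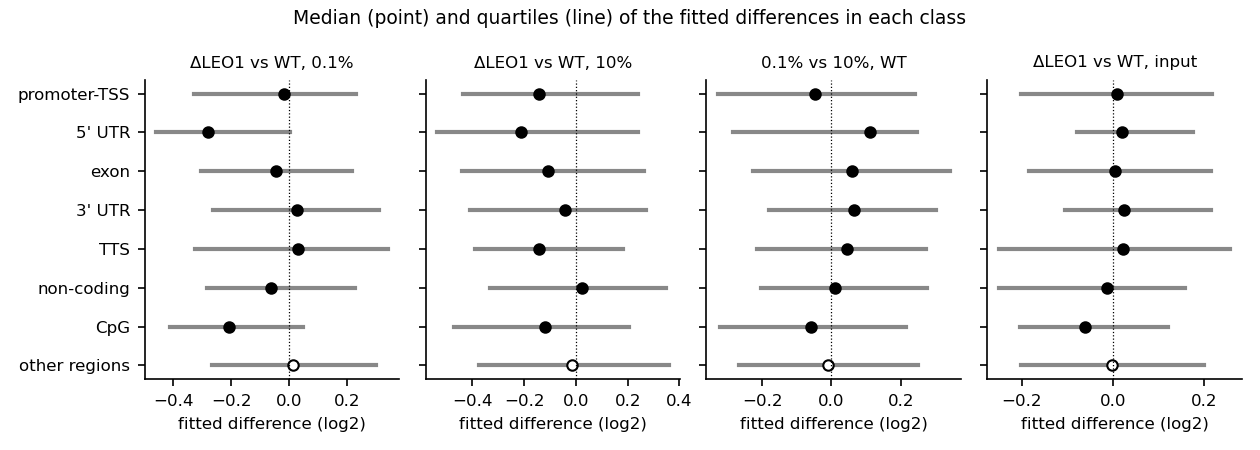
Median (point) and quartiles (line) of the fitted log2 differences in each class (x axis) for ΔLEO1 against WT in 0.1% and in 10% serum, for serum in WT, and for the inputs, with the repeat, intron and intergenic regions as an open point. The 5' UTR and CpG medians in 0.1% serum were -0.28 and -0.21, and the input medians of these classes were 0.02 and -0.06.

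The share of region reads in each class was then compared over both sera, a choice made after the values in 0.1% serum were seen. All 1211 regions together held 8.49 ± 0.14% of region reads in the 4 WT ChIP libraries and 7.99 ± 0.04% in the 3 ΔLEO1 libraries, a ratio of 0.941 without overlap. CpG regions held 2.08 ± 0.09% and 1.82 ± 0.12% (ratio 0.876), 5' UTR regions 0.213 ± 0.005% and 0.184 ± 0.006% (0.863) and promoters 1.89 ± 0.05% and 1.78 ± 0.002% (0.942), each without overlap. Exon, 3' UTR, TTS and non-coding shares overlapped between the genotypes, with ratios of 0.959, 1.04, 0.967 and 1.01. In the inputs the ratios were 0.996 for 5' UTR, 1.00 for promoter and 0.957 for CpG regions, and the genotypes overlapped over both sera. Within a serum the CpG shares did not overlap and ran in opposite directions. CpG regions held 1.92% and 2.06% of WT and 1.71% and 1.77% of ΔLEO1 input reads in 10% serum, and 1.75% and 1.72% of WT and 1.77% and 1.88% of ΔLEO1 input reads in 0.1% serum. The 5' UTR shares and those of all 1211 regions were likewise lower in ΔLEO1 inputs in 10% serum and higher in 0.1% serum, without overlap. Promoters held 1.77% and 1.80% of WT and 1.71% and 1.75% of ΔLEO1 input reads in 10% serum, also without overlap. In 0.1% serum the promoter input shares overlapped. Within 10% serum alone the single ΔLEO1 ChIP library held 1.95% in CpG regions, below the 2.08% and 2.19% of the WT libraries, and within 0.1% serum the values were 1.78% and 1.73% against 2.08% and 1.97%. Relative to the inputs of the same group and to the other regions, CpG log2 ChIP over input in 10% serum was 0.17 in ΔLEO1, above the 0.14 and 0.06 of WT, and in 0.1% serum -0.04 and -0.08 in ΔLEO1, below the 0.27 and 0.19 of WT. So in 10% serum the CpG share was lower in ΔLEO1 in ChIP and in input alike, and in 0.1% serum in ChIP but not in input. Without the chromosome 4 stretch the ratios were 0.939 for all, 0.873 for CpG and 0.938 for promoter regions. Against input, the 1211 regions held 8.28 ± 0.29% of ChIP and 7.99 ± 0.29% of input region reads, which overlapped.

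**Figure D5:**
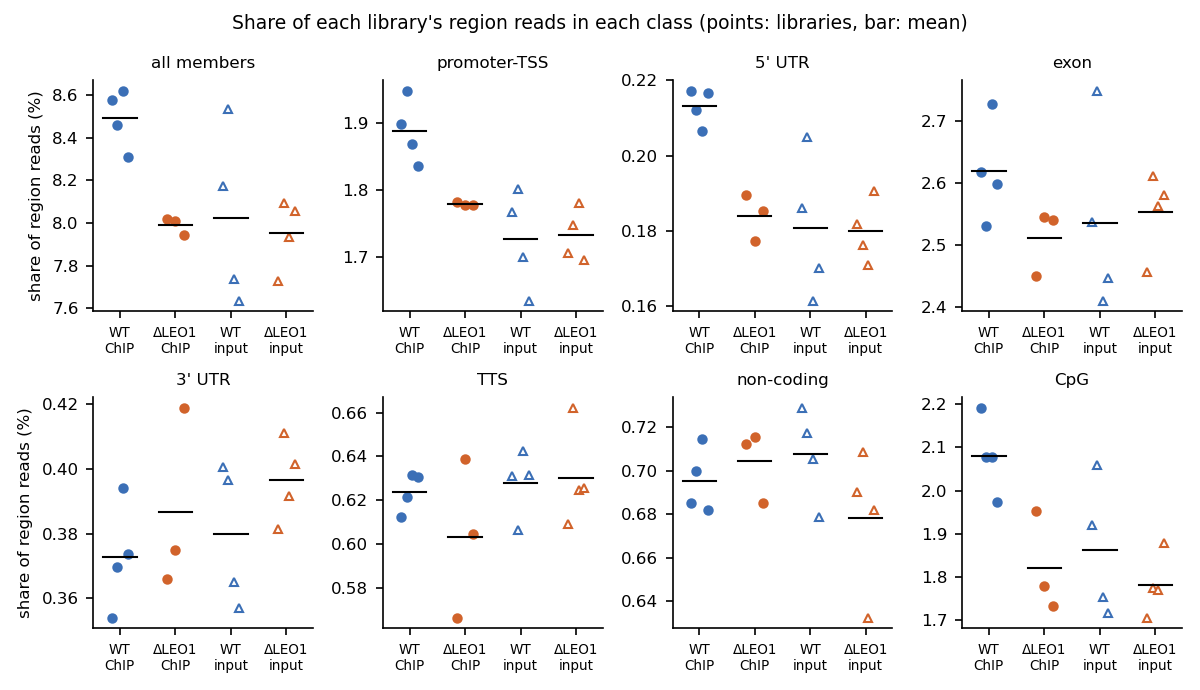
Share of each library's region reads in each class in percent (y axes, not starting at 0), one point per library of both sera, ChIP as filled circles and input as open triangles, WT in blue and ΔLEO1 in orange, black bar the mean. In ChIP the ΔLEO1 points lay below the WT points for all regions together, promoter, 5' UTR and CpG regions, and in input the genotypes overlapped in each of these over both sera.

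The matched promoters also differed by sequence. The 70 with at least 20 CG had a median log2 difference of -0.18 in 0.1% serum, with 43 below 0, and the 58 with fewer CG a median of 0.01, with 29 below 0. In 10% serum the medians were -0.21 and 0.06, and in the inputs -0.05 and -0.04. A like split was seen without a change of genotype: between sera in WT the medians were -0.16 and 0.03. These medians describe regions of the same libraries and were not tested.

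In 10% serum, where 1 ΔLEO1 library met 2 WT libraries, 0 of the 1211 regions were called, as for 0% of all regions (edgeR, 32 higher and 56 lower at an unadjusted p under 0.05, beside 618 (3.84%) and 509 (3.16%) of all regions; DESeq2 0). The spread of the single ΔLEO1 library was taken from the other groups. The lowest p among lower regions was at the first exon of TYR, tyrosinase of melanin synthesis, with 21 and 28 reads in WT and 2 in ΔLEO1 (log2 difference -2.30 ± 0.63, adjusted p = 0.357 in edgeR). NKX2-4, a homeobox factor, had 38 and 30 against 5 (-1.84 ± 0.57) and the CpG region nearest to ERICH1 40 and 40 against 8 (-1.50 ± 0.46). On the higher side were an exon of the secreted mucin MUC5AC, with 15 and 18 against 32 (1.49 ± 0.40), MIR3667HG (1.55 ± 0.47) and a CpG region near MIR5190 (0.87 ± 0.27). TYR and MUC5AC were also among the smallest p-values between sera within ΔLEO1, which uses the same single library. There TYR had 21 and 27 reads in 0.1% serum (2.61 ± 0.63, adjusted p = 0.173 in edgeR). A CpG region near the ephrin receptor EPHA7 led the lower side (-1.63 ± 0.40, adjusted p = 0.173 in edgeR), before MUC5AC with 15 and 11 reads (-1.50 ± 0.41). NTPCR (2.07 ± 0.61), RTL6 (1.64 ± 0.50) and the promoter of the netrin receptor UNC5D (-1.61 ± 0.46) completed the list, and 0 regions were called, as for 0% of all regions (45 higher and 56 lower at an unadjusted p under 0.05 in edgeR, beside 594 (3.69%) and 638 (3.96%) of all regions; DESeq2 0). With TSS-window totals the median difference between genotypes in 10% serum was -0.32 over the 1211 regions and -0.23 over all regions. Between sera in ΔLEO1 the medians were -0.18 and -0.17, and EPHA7 was called lower, beside 3 (0.0186%) of all regions.

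To learn whether quiescence itself changed the regions, 0.1% serum was compared with 10% serum in WT. None passed, as for 0% of all regions (edgeR, 45 higher and 71 lower at an unadjusted p under 0.05, beside 538 (3.34%) and 632 (3.93%) of all regions; DESeq2 0), but several lay close to the threshold. The exon region of NKX2-4 held 38 and 30 reads in 10% serum and 8 and 9 in 0.1% serum (log2 difference -1.70 ± 0.39, adjusted p = 0.0503 in edgeR). The CpG region nearest to LINC00290, in the chromosome 4 stretch, held 38 and 42 against 16 and 9 (-1.46 ± 0.33, adjusted p = 0.0503 in edgeR). The WT input reads at NKX2-4 were 10 and 19 in 10% serum and 5 and 3 in 0.1% serum, and with input subtracted in 1 fit its difference was -0.15 and that of LINC00290 -0.85. Exon 11 of SH3PXD2A, a scaffold of podosomes, held 7 and 5 against 28 and 21 (1.75 ± 0.40, adjusted p = 0.0503 in edgeR). HSF5, a testis heat shock factor, had 45 and 36 against 19 and 8 (-1.39 ± 0.32, adjusted p = 0.0583 in edgeR), and GPR78, an orphan receptor, 21 and 19 against 47 and 41 (1.12 ± 0.29, adjusted p = 0.127 in edgeR). A CpG region near RAB39A, a small GTPase of vesicle traffic, had 0.90 ± 0.30. The median difference was -0.01 over the 1211 regions and -0.01 over all regions, and class medians ran from -0.06 (CpG) to 0.11 (5' UTR). With TSS-window totals, 29 were higher and 113 lower at an unadjusted p under 0.05 in edgeR, beside 1371 of all 16092 regions in either direction. Of the 1211, 8 were called lower, beside 10 (0.0621%) of all regions, and the median of all regions was -0.12. A genotype by serum term, added after the data were seen, called 0 of the 1211 and 0 of all regions in edgeR. It rested on the single ΔLEO1 library in 10% serum, and its median was 0.005 over the 1211 and 0.02 over all regions.

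The inputs of the genotypes were compared as a background. Of the 1068 regions with enough input reads, 0 were called, as for 0% of the regions tested (edgeR, 19 higher and 25 lower at an unadjusted p under 0.05, beside 308 (2.2%) and 308 (2.2%) of all tested; DESeq2 0). The median difference was -0.01.

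Gene families were counted by the symbol of the nearest gene. Zinc finger genes numbered 42 regions, protocadherins and cadherins 26, olfactory receptors 25, ion channels 31, homeobox and other developmental factors 16, collagen and matrix genes 7, long noncoding RNAs 156 and microRNAs 52. The prefixes also took in FOXRED2 and FOXCUT, which are not developmental factors. Genes of the PAF1 complex, of H3K9 methylation and of quiescence were near none of the 1211 regions. Among all merged peak regions only 0, 5 and 5 lay near these genes, in that order. Such counts are too small to tell whether the 1211 regions avoided them. The median log2 ChIP over input of the families ran from 1.502 (matrix) to 1.76 (cadherins), beside 1.66 over all regions. In ΔLEO1 against WT in 0.1% serum 19 of the 26 cadherin regions were below 0, with a median of -0.17 and 0 called, and by nearest gene the long noncoding RNAs held all 3 calls, with a median of -0.04. Olfactory receptor (0.07), ion channel (0.06) and zinc finger regions (-0.03) had medians near that of all regions. Between sera in WT, the 7 matrix regions had a median of -0.53 and the 16 developmental factor regions one of 0.27, with 0 called in each.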

How the data were processed

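Per the labels, chromatin of BJ-5ta cells was immunoprecipitated with fly spike-in chromatin added, and the submitters' notes name bcl2fastq 2.20.0.422, STAR 2.7.10a, HOMER and the builds hg38 and dm6. The authors deposited read counts, not normalized, in merged peak regions with HOMER annotation and in windows of 2000 bases around annotated starts. The tables hold 0 fly regions, so the spike-in scaling was not used here and an overall change of the mark cannot be seen. Regions were fitted with edgeR 4.0.16 (TMM, filterByExpr with a minimum count of 10, quasi-likelihood test, prior count 2, adjusted p under 0.05 over all regions), with 7 ChIP libraries in 1 fit. ChIP over input used totals of distinct TSS windows on chromosomes as library sizes. DESeq2 1.42.0 was an alternative. Class shares and medians are values without a test, since the members and lists were chosen with earlier results of these data known. In simulated counts for 16092 regions in the comparison of genotypes in 0.1% serum, 13 of 200 regions changed by 1 (log2) and 143 of 200 changed by 2 were recovered. Named genes were the 3 densest, 3 highest and 2 lowest over input of each class, called regions, the 3 smallest p-values each way of each ChIP contrast and families of at most 5 regions. Nothing says that replicates came from separate cultures, so p-values measure the spread between these libraries, which may be technical. How duplicate reads were treated is not given in the sources used here. 1 region that this rule names is not reported here.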

Additional observations from a re-analysis of the deposited data

How the results depend on the processing

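The comparison of ΔLEO1 with WT in 0.1% serum, with 3 regions called, gave 3 without TMM, without the filter on low counts, with the 4 libraries alone and with the replicate block, each time the same 3 regions. It gave 0 with all 8 ChIP libraries, with DESeq2 and with ChIP minus input, and 10 with TSS-window totals. Outside chromosome 4 between 80 and 190 Mb, a cut chosen after seeing the data and not refitted, 0 were left, since all 3 lay inside it. Leaving out 1 library left 1 in a group, and fewer regions passed. The log2 differences then ran from -1.47 to -1.31 at LINC02510, -1.57 to -0.98 at LINC02433 and -2.51 to -1.61 at FAM198B-AS1. All 3 kept their direction under the 12 alternatives. The differences at LINC02510, LINC02433 and FAM198B-AS1 were -1.37, -1.32 and -1.88 with 8 libraries, -1.48, -1.39 and -2.28 with DESeq2, and -1.26, -1.40 and -1.73 with ChIP minus input. Serum in WT, with 0 called, gave 8 with TSS-window totals, 1 (NKX2-4) with the 4 libraries alone and 4 with the replicate block (SH3PXD2A, HSF5, NKX2-4, LINC00290). The replicate letters did not pair the libraries: correlations of their deviations were between -0.002 and 0.028. The block gave 0 in 10% serum, in ΔLEO1 and in the inputs, and 1209 for ChIP against input. Serum in ΔLEO1 gave 1 with TSS-window totals (EPHA7). The inputs gave 0 to 3 when 1 library was left out, the 3 without ΔLEO1 10% replicate B. ChIP against input gave 3 regions, all lower, when region totals with TMM set the library sizes, which by construction removes a shared gain, and 1205 to 1209 when 1 library was left out. The share of the 1211 regions differed between ChIP and input by 0.290 percentage points, and by 0.745 as a share of TSS-window reads. Between genotypes in 0.1% serum it differed by -0.489, by -0.247 as a share of TSS-window reads, and by -0.103 after division by the input share, a ratio. The cause of these changes was not tested where none is given. The other 138 repeats stayed within 1.5 times the count or 1 SD of the value. Choosing regions by a plain annotation column was not run, as the table used here has only the detailed one. The median region held 13 to 23 ChIP reads, and the parts of depth and replicate number in the few calls were not tested.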
